A study of Mus musculus with 6 samples.

Results

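The calcium pumps are 9 genes, chosen by symbol from the 46603 genes of the deposited tables and all found there: 3 SERCA genes (Atp2a1, Atp2a2 and Atp2a3), 4 PMCA genes (Atp2b1, Atp2b2, Atp2b3 and Atp2b4) and 2 SPCA genes (Atp2c1 and Atp2c2). RNA was sequenced from enamel organ cells of the lower incisors of C57BL/6 mice. Libraries 1, 3 and 4 came from Stim1/2 knockout mice (DKO) and libraries 1, 2 and 3 from wild-type mice (WT). The enamel organ is the epithelium that holds the ameloblasts, the cells that lay down and then mature enamel. The labels name no Cre driver, allele, age or pooling, and do not say whether each library is a separate animal, so each p reflects the spread of these 6 libraries, which may be partly technical. Set against the tissue label, the enamel matrix gene Amelx stood at 43990 to 81130 CPM (counts scaled to 1000000 per library, with TMM factors) in DKO and at 28850 to 63670 CPM in WT, so all libraries carried the defining product of ameloblasts.

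These pumps are P-type ATPases that spend ATP to carry calcium out of the cytosol. SERCA pumps fill the endoplasmic reticulum, the store that STIM1 and STIM2 sense and that store-operated calcium entry refills. PMCA pumps, which calmodulin activates, push calcium out through the plasma membrane, and SPCA pumps load calcium and manganese into the Golgi apparatus. Ameloblasts move large amounts of calcium into the growing enamel, and both extrusion pumps and sodium-calcium exchangers have been described in them.

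Total counts ran from 18609759 to 21196538 in the DKO libraries and from 21127654 to 22829411 in the WT libraries. The targeted gene Stim1 stood at 107 to 143 CPM in DKO and at 362 to 492 CPM in WT, and Stim2 at 105 to 136 CPM in DKO and at 229 to 310 CPM in WT. Both fell in edgeR's quasi-likelihood test (adjusted p = 0.00553 and 0.0179). These are whole-gene counts, which include any exons outside the deleted part. Xist exceeded 100 CPM in 1 DKO library (DKO 1) and in 2 WT libraries (WT 1 and WT 2), so both groups mixed the sexes, unequally. In tissue RNA, fewer cells of a type and less RNA per cell cannot be told apart.

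A single pump gene, Atp2b4 of the plasma membrane, differed between DKO and WT. It fell to 61.1% of its WT level, with every DKO library beneath every WT library. No pump gene rose. The store pump gene Atp2a2, by far the most abundant, missed the threshold, as did the abundant Atp2c1 and Atp2b1. Of the 9 genes, 8 had enough counts to be tested, and 1 of the 8 was called. Across the transcriptome, 1.04% of 14721 tested genes were called, 0.734% as higher and 0.306% as lower in DKO. The DESeq2 Wald test, which called 5.29% of the genes it tested, also called Atp2b4 and no other pump gene (log2 fold change -0.70, adjusted p = 1.916e-06). The Atp2b4 call was lost in 11 of 18 alternatives, among them 5 of the 6 fits with a library left out, the term for Xist, the replicate block (edgeR adjusted p = 0.0895) and the 3 limma fits. Over all genes, 108 calls were higher and 45 lower in DKO, but lower calls outnumbered higher ones without WT 2 (124 higher and 211 lower) and under the replicate block (132 higher and 196 lower). The groups of libraries did not overlap for 23.3% of tested genes, with DKO below WT for 11.8%, against 1 of the 8 tested pump genes.

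**Figure D1:**
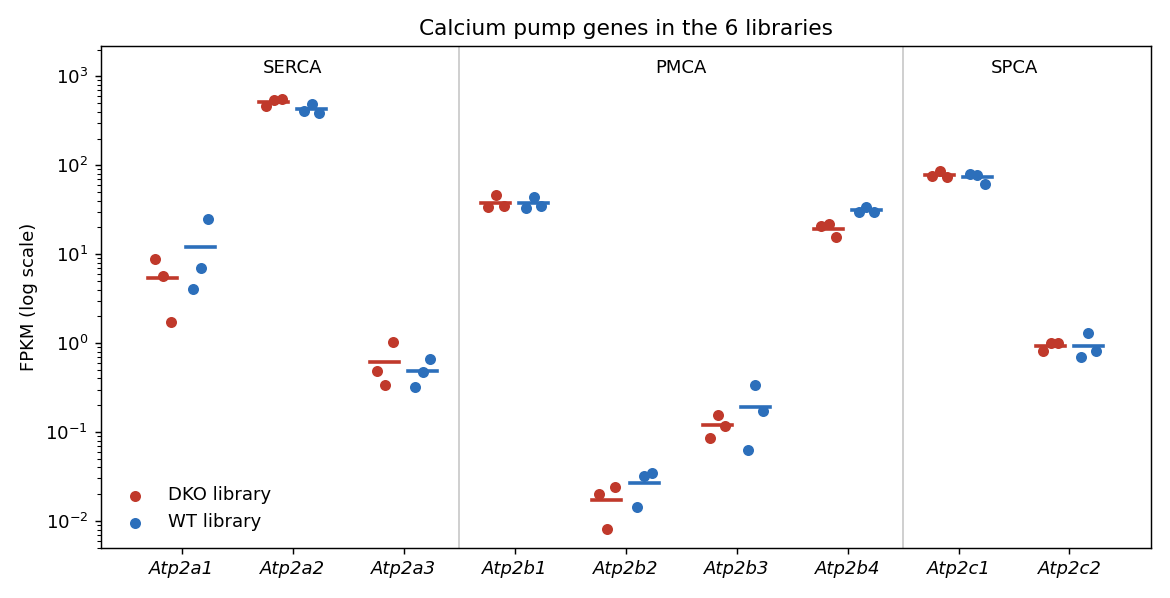
Level of each calcium pump gene in FPKM (fragment density per kilobase of transcript, scaled to library depth, logarithmic axis), with 1 point per library, a bar at the group mean, and DKO to the left of WT. Atp2a2 lies highest, at 387 to 559 FPKM over the 6 libraries, and Atp2b4 is the gene whose DKO points all lie below its WT points.

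Per length, the pump genes spanned more than 4 orders of magnitude. This comparison uses the deposited FPKM, since counts favour long transcripts. In both groups the order was Atp2a2, Atp2c1, Atp2b1, Atp2b4, Atp2a1, Atp2c2, Atp2a3, Atp2b3 and Atp2b2. Atp2a2 averaged 521.6 ± 46.5 FPKM in DKO and 429 ± 55.3 FPKM in WT (SD, n = 3 each), which was rank 106 in DKO and rank 153 in WT of 21471 protein-coding genes. Neighbours in this order had separate FPKM ranges of libraries with few exceptions. In DKO the ranges of Atp2c2 and Atp2a3 overlapped. In WT the ranges overlapped for Atp2b1 with Atp2b4 and for Atp2a3 with Atp2b3. Atp2b4 thus overlapped Atp2b1 in WT and lay wholly below it in DKO. The separation of Atp2a1 from Atp2c2 held in FPKM only. In CPM their ranges overlapped in both groups, with exon lengths of 3477 bases for Atp2a1 and 3222 for Atp2c2. Atp2a1 had 0.695 to 9.23 CPM in DKO and 3.35 to 28.4 CPM in WT. Atp2c2 had 2.66 to 3.52 CPM in DKO and 2.38 to 4.46 CPM in WT.

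Summed over each family, SERCA made up 79.4 ± 2.18% of the pump FPKM in DKO and 75.5 ± 1.27% in WT. PMCA made up 8.68 ± 1.24% in DKO and 11.8 ± 0.355% in WT, and SPCA 11.9 ± 0.991% in DKO and 12.7 ± 1.62% in WT (SD, n = 3 each). The SERCA and PMCA shares did not overlap between the groups. SERCA over PMCA stood at 8.77, 7.98 and 11.2 in DKO 1, 3 and 4, against 6.51, 6.40 and 6.34 in WT 1, 2 and 3. The WT libraries were nearly alike, and every DKO library lay above them. No test was run on these family shares or this ratio, and 3 against 3 libraries allow no exact permutation p below 0.1. The summed PMCA level itself overlapped, at 54.6, 67.9 and 50.2 FPKM in DKO and 63.3, 77.9 and 65.1 FPKM in WT. The summed SERCA level overlapped too, at 479, 542 and 562 FPKM in DKO and 412, 499 and 413 FPKM in WT.

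Among the store pumps, Atp2a2 encodes SERCA2, whose SERCA2b form serves as the housekeeping pump of most cells (ENSMUSG00000029467, GRCm38 chromosome 5, 122453513 to 122502225, minus strand). It stood at 2115, 2538 and 2565 CPM in DKO 1, 3 and 4, against 1850, 2280 and 1766 CPM in WT 1, 2 and 3. DKO 1 lay below WT 2, so the groups overlapped. The log2 fold change was 0.29 (SE 0.15), a fold of 1.22 with a 95% interval from 0.960 to 1.56, and edgeR's adjusted p was 0.359. Within the Xist-high libraries the log2 difference was 0.03 (DKO 1 against the mean of WT 1 and WT 2), and within the Xist-low libraries 0.53 (the mean of DKO 3 and DKO 4 against WT 3), both in the direction of the pooled value. Gene counts do not separate the SERCA2 splice forms.

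Atp2a2 held 98.1, 98.9 and 99.5% of the SERCA FPKM in DKO 1, 3 and 4, against 98.9, 98.5 and 93.9% in WT 1, 2 and 3. WT 3 was lowest, and there Atp2a1 held 5.98%. These shares depend on the measure. In counts, WT 3 had 652 for Atp2a1 and 40517 for Atp2a2. The mean Atp2a2 share was 1.71 percentage points higher in DKO by FPKM. That difference was 0.43 points from counts with no length correction and 0.75 points from counts over exon length. Atp2a1 is the pump gene of fast skeletal muscle (ENSMUSG00000030730, chromosome 7, 126445858 to 126463108, minus strand). It had 9.23, 4.79 and 0.695 CPM in DKO 1, 3 and 4, against 3.35, 4.85 and 28.4 CPM in WT 1, 2 and 3. WT 3 stood far above and DKO 4 far below the rest, and the groups overlapped. By edgeR its log2 fold change was -1.31 (SE 0.97, adjusted p = 0.525), and 0.27 without WT 3. It was 1.17 within the Xist-high and -3.37 within the Xist-low libraries, so its sign turned between them.

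The summed skeletal muscle markers had the same libraries at their extremes. The sum was 197, 152 and 65.6 CPM in DKO 1, 3 and 4, against 88.9, 136 and 394 CPM in WT 1, 2 and 3. Of 15 markers Tnnc2 was at 0 in all libraries, 14 were tested, 12 of these had a negative log2 fold change and 0 passed in edgeR (0 at an unadjusted p below 0.05 and 0 by DESeq2). Of the 14, 10 were lowest in DKO 4 and highest in WT 3, as Atp2a1 was. The other 4 were not: Myh2 was lowest in WT 3 and highest in DKO 1, Myh4 was highest in DKO 3, and Myh1 and Ryr1 were highest in WT 3 but not lowest in DKO 4. Muscle actin Acta1 stood at 58.3, 32.6 and 4.49 CPM in DKO, against 16.4, 29.6 and 103 CPM in WT. By the root mean square difference of centred log2 CPM over the 6 libraries, the genes most like Atp2a1 of 11812 searched were Acta1 (0.315), Tnnt3 (0.425) and Tnni2 (0.436), all of the contractile apparatus of skeletal muscle. These neighbours are given after their values were seen. The part of muscle RNA in the Atp2a1 values was not tested.

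Counting also bears on Atp2a1, which shares 763 exonic bases with Rabep2 on the opposite strand, in libraries that do not mark strand. One FPKM of Atp2a1 stood for 0.398 CPM in DKO 4 but for 1.15 CPM in WT 3, a spread of 2.89 times. For Atp2a2 the same ratio spread by 1.05 times. Rabep2 itself had 27.3 to 29.7 CPM in DKO and 23.8 to 30.9 CPM in WT.

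Atp2a3 encodes SERCA3, known from blood cells, platelets and some epithelia and endothelia (ENSMUSG00000020788, chromosome 11, 72961169 to 72993044, plus strand). It was low, with 2.31, 1.68 and 4.98 CPM in DKO 1, 3 and 4, against 1.44, 1.94 and 3.14 CPM in WT 1, 2 and 3. DKO 4 and WT 3 were the highest libraries of their groups, and the groups overlapped (log2 fold change 0.46, SE 0.46, edgeR adjusted p = 0.649, and -0.12 without DKO 4). Platelet markers summed to 4.51, 4.48 and 13.3 CPM in DKO and to 4.28, 3.59 and 6.41 CPM in WT, also highest in DKO 4 and WT 3, with 4 of 4 tested markers above 0 and 0 called by edgeR (0 at an unadjusted p below 0.05, 0 by DESeq2). Within WT, however, the platelet marker Gp1bb was highest in WT 1 (1.36 CPM, against 0.959 CPM in WT 3). The platelet integrin gene Itga2b was the closest of the 11812 genes to Atp2a3 by the same measure (0.158), again given after its value was seen. Leukocyte markers summed to 139 to 244 CPM in DKO and to 97.7 to 132 CPM in WT, with 6 of 6 tested markers above 0 and 0 called by edgeR (4 at an unadjusted p below 0.05, 2 by DESeq2). Endothelial markers summed to 283 to 307 CPM in DKO and to 193 to 255 CPM in WT, with 8 of 8 above 0 and 0 called by edgeR (3 at an unadjusted p below 0.05, 1 by DESeq2). The leukocyte sum was also highest in DKO 4 and WT 3, as was the erythroid sum (392.2 and 435 CPM). The endothelial sum was highest in DKO 4 and WT 1. The T cell marker Cd3e was near 0, at most 0.0872 CPM in any library. Whether these cells set the Atp2a3 level was not tested.

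**Figure D2:**
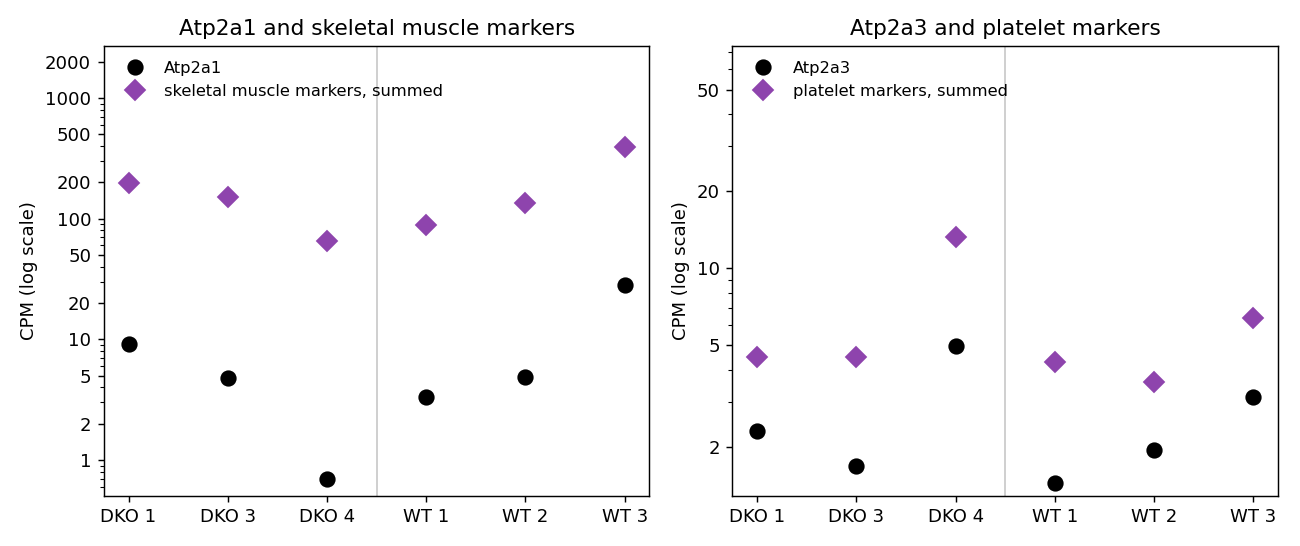
CPM (logarithmic axis) of Atp2a1 beside the summed skeletal muscle markers, and of Atp2a3 beside the summed platelet markers, with 1 point per library and DKO left of WT. Atp2a1 and the muscle sum are lowest in DKO 4 (0.695 and 65.6 CPM) and highest in WT 3 (28.4 and 394 CPM), and Atp2a3 and the platelet sum are highest in DKO 4 (4.98 and 13.3 CPM).

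At the plasma membrane, Atp2b1 and Atp2b4 supplied nearly all PMCA transcript. They are the widely expressed members of the family. Promoter entries of RefSeq (GRCm38.p6) matched 6 of the 9 pump genes, with 10 entries in all. The promoters of these PMCA paralogs are shown because 1 of the genes was called and the other was not. Capitals mark the core letters that NFAT, the transcription factor activated by store-operated entry through calcineurin, prefers (GGAAA or, on the other strand, TTTCC). Each runs 5′ to 3′ along the gene's strand, from 250 bases before to 50 after the RefSeq start.
Atp2b4, chr1:133753698-133753997, minus strand: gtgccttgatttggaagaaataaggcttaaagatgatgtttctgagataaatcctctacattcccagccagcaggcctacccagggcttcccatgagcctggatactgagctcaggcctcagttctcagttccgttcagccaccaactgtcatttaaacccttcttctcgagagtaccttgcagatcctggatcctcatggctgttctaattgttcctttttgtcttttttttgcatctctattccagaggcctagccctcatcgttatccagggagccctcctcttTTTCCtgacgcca
Atp2b1 first entry, chr10:98914392-98914691, plus strand: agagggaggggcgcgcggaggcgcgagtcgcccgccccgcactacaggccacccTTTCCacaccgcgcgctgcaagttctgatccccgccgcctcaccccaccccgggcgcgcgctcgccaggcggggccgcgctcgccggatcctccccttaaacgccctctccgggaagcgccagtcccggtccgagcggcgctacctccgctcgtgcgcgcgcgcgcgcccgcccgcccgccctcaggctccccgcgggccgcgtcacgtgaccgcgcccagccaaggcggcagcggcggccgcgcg
Atp2b1 second entry, chr10:98914902-98915201, plus strand: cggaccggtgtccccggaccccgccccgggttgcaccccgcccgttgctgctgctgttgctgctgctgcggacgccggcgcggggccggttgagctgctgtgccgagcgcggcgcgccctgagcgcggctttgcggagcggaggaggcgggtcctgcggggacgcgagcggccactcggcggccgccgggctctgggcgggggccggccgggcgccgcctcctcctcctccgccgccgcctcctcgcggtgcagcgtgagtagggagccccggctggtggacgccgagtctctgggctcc
The Atp2b4 entry holds 1 match, at 37 to 41 bases past the start (the start being 0), the first Atp2b1 entry 1 match at -196 to -192, and the second 0. Of 32544 promoters of this length, 61.5% hold at least 1 match on either strand. The GC box GGGCGG, searched on both strands, had 0 matches in the Atp2b4 entry and 4 and 3 in the Atp2b1 entries, the last 3 of the first entry overlapping by 2 bases each, and occurs in 35.9% of promoters. GC content was 47.7% for Atp2b4 and 79.3% for each Atp2b1 entry, which held 54 and 45 CpG sites against 4 in the Atp2b4 entry. The Atp2b4 entry lies 47294 bases inside the gene's outermost annotated start, and gene counts do not show which start was used. A match describes these letters and is not a shown binding site.

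Atp2b4 encodes PMCA4, the plasma membrane pump also known from red blood cells and sperm (ENSMUSG00000026463, chromosome 1, 133699457 to 133801041, minus strand). It had 2467, 2719 and 2111 counts in DKO 1, 3 and 4, against 4528, 4706 and 4444 counts in WT 1, 2 and 3. In normalised terms that was 124, 138 and 113 CPM in DKO and 192, 228 and 194 CPM in WT. All DKO libraries lay below all WT libraries, with means of 125 ± 12.9 CPM in DKO and 205 ± 20.3 CPM in WT (SD, n = 3 each). The log2 fold change was -0.71 (SE 0.11), with a 95% interval of the fold from 0.515 to 0.725 (edgeR adjusted p = 0.033).

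The fall of Atp2b4 had the same direction under all 18 alternatives, with log2 fold changes from -0.79 to -0.56. Its call was less stable: it passed in 7 of the 18. It ended when DKO 1, DKO 3, DKO 4, WT 1 or WT 3 was left out in turn (edgeR adjusted p = 0.111, 0.070, 0.133, 0.0573 and 0.0776) and held without WT 2 (0.0334). Limma on log2(FPKM + 1), on log2(FPKM + 0.1) and without a filter gave adjusted p = 0.0857, 0.0882 and 0.214, and edgeR without WT 3 and DKO 4 together gave 0.262. A term for the Xist-high libraries also ended it (0.0886), and the direction was the same within each class. The Xist-high libraries gave 124 CPM in DKO 1 and a mean of 210.1 CPM in WT 1 and WT 2 (log2 -0.76). The Xist-low libraries gave a mean of 126 CPM in DKO 3 and DKO 4 and 194 CPM in WT 3 (log2 -0.62).

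**Figure D3:**
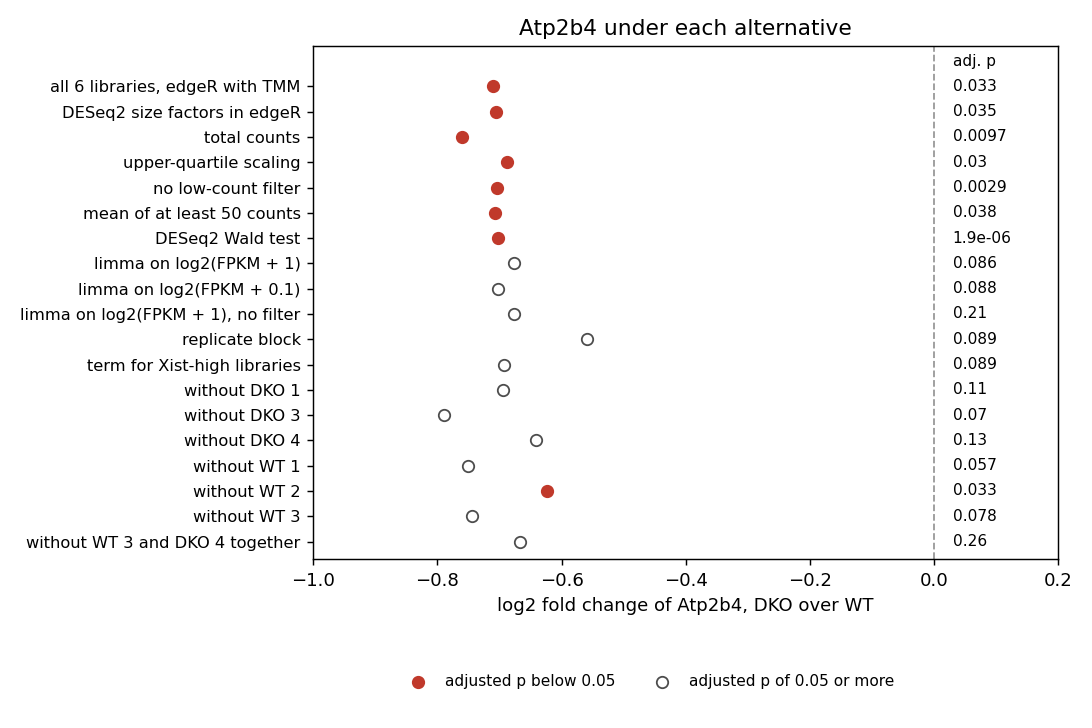
Log2 fold change of Atp2b4, DKO over WT, with all 6 libraries and under each of 18 alternatives, filled where the adjusted p was below 0.05 and with that p at the right. All points lie left of 0, between -0.79 and -0.56, and 7 of the 18 alternatives are filled.

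Like the endothelial and leukocyte sums given above, the sums of keratinocyte and of smooth muscle and pericyte markers also separated the groups. Over all tested genes, 48.7% had a log2 fold change above 0 and 18% an unadjusted p below 0.05. Keratinocyte genes summed to 6609 to 6809 CPM in DKO and to 8840 to 10290 CPM in WT, without overlap, with 6 of 6 tested members below 0. Among them edgeR called Krt6a, at 60.6 to 108 CPM in DKO and 230.1 to 418 CPM in WT, and DESeq2 called 3. Most abundant in this list were Krt5 (means of 2992 CPM in DKO and 4339 CPM in WT) and Krt14 (2956 and 4084 CPM). Whether these genes mark cells other than the enamel organ epithelium itself was not tested. Smooth muscle and pericyte markers summed to 765 to 875 CPM in DKO and to 494 to 681 CPM in WT, with 7 of 8 above 0 and 0 called by edgeR (5 at an unadjusted p below 0.05, 3 by DESeq2). Mesenchyme and osteoblast markers overlapped, at 10370 to 12950 CPM in DKO and 6676 to 10960 CPM in WT, with 7 of 8 above 0 and 0 called by edgeR (3 at an unadjusted p below 0.05, 1 by DESeq2). Ameloblast markers overlapped, at 138500 to 206600 CPM in DKO and 96910 to 163300 CPM in WT, with 7 of 9 above 0 and 0 called by edgeR (4 at an unadjusted p below 0.05, 2 by DESeq2, 1 of them in each direction). Erythroid markers overlapped too, at 134 to 392.2 CPM in DKO and 140.5 to 435 CPM in WT, with 6 of 6 tested below 0 and 0 called by edgeR (0 at an unadjusted p below 0.05, 0 by DESeq2). The part of these cells in the Atp2b4 fall was not tested.

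Its paralog Atp2b1, PMCA1, the housekeeping member of the family (ENSMUSG00000019943, chromosome 10, 98914406 to 99026143, plus strand), was not called. It stood at 254.5, 365 and 263 CPM in DKO 1, 3 and 4, against 252, 339 and 266 CPM in WT 1, 2 and 3. The groups overlapped almost completely, and DKO 3 and WT 2 were highest. The fold was 1.03, with a 95% interval from 0.781 to 1.36 (log2 fold change 0.04, SE 0.17, edgeR adjusted p = 0.923). The sign turned under total-count scaling (-0.01). It also turned between the Xist-high (-0.22) and the Xist-low libraries (0.24).

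The difference between these paralogs was tested on their count ratio, which no scaling can move. Atp2b4 over Atp2b1 was 0.486, 0.379 and 0.430 in DKO 1, 3 and 4, against 0.762, 0.673 and 0.727 in WT 1, 2 and 3. The ratio was lower in 3 of 3 DKO libraries than in any WT library, with a log2 difference of -0.74 (-1.22 ± 0.18 in DKO and -0.47 ± 0.09 in WT, SD, n = 3 each). The exact two-sided permutation p was 0.1, the smallest that 3 against 3 libraries allow, and 0.5 after Benjamini-Hochberg adjustment over the 5 ratios compared, so the test misses the threshold. Per length, Atp2b4 held 38.0, 32.1 and 31.2% of the PMCA FPKM in DKO, against 47.4, 43.7 and 46.3% in WT. Atp2b1 held 61.8, 67.7 and 68.5% in DKO, against 52.5, 55.8 and 53.4% in WT. Both shares separated the groups, by 12.0 and 12.1 percentage points, again with an exact permutation p of 0.1. Since these genes hold nearly all PMCA FPKM, the shares mirror each other and restate the ratio. They are not separate evidence.

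**Figure D4:**
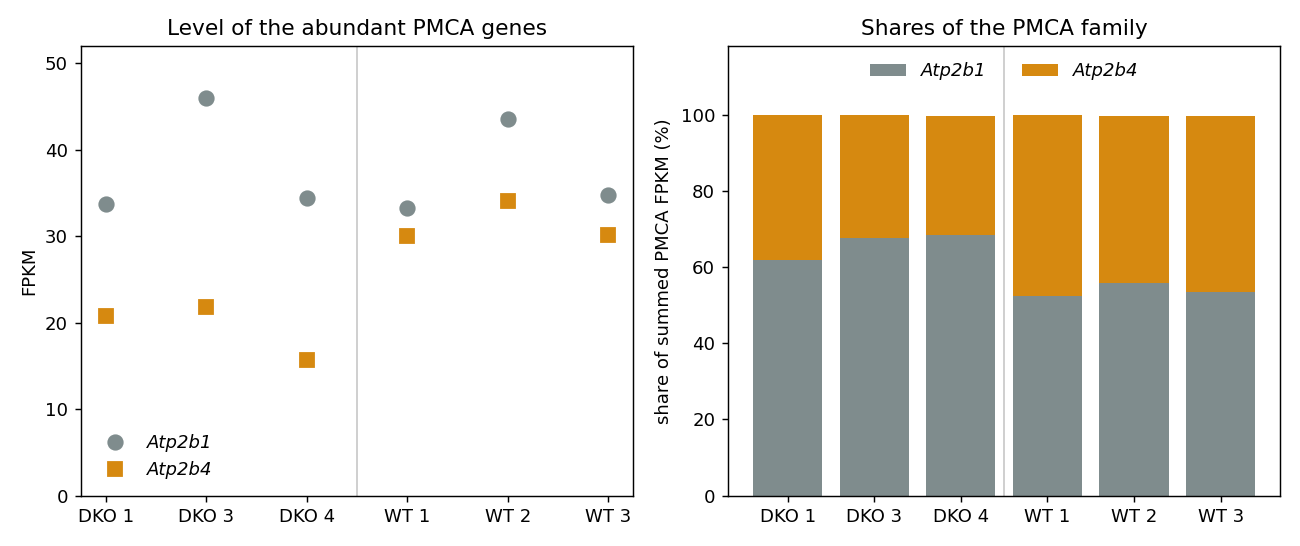
FPKM of Atp2b1 and Atp2b4 in each library (left) and their shares of the summed PMCA FPKM in percent (right), DKO left of WT. Atp2b4 holds 31.2 to 38.0% in DKO and 43.7 to 47.4% in WT, while the Atp2b1 levels of the groups overlap.

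The remaining PMCA genes, known for their roles in neurons and, for Atp2b2, in hair cells of the ear and lactating mammary gland, were nearly silent. Atp2b3 (ENSMUSG00000031376, chromosome X, 73503086 to 73571005, plus strand) had 9, 19 and 15 counts in DKO, against 6, 34 and 21 counts in WT. The WT libraries alone spanned the whole range (log2 fold change -0.33, SE 0.63, edgeR adjusted p = 0.829, and 0.34 without WT 2). Atp2b2 (ENSMUSG00000030302, chromosome 6, 113743831 to 114042613, minus strand) had 3, 1 and 3 counts in DKO, against 2, 5 and 6 counts in WT, and was too low to be tested. Atp2b3 held at most 0.434% and Atp2b2 at most 0.0535% of the PMCA FPKM in any library. Nerve and glia markers summed to 38.8 to 70.6 CPM in DKO and to 53.2 to 64.2 CPM in WT, with 4 of 7 tested above 0, 0 called by edgeR (0 at an unadjusted p below 0.05, 0 by DESeq2) and Sox10 at 0 in DKO 3 and WT 2.

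In the Golgi family, Atp2c1 encodes SPCA1, whose human counterpart is mutated in the blistering skin disorder Hailey-Hailey disease (ENSMUSG00000032570, chromosome 9, 105403539 to 105527319, minus strand). It was the second most abundant pump gene per length and stood at 214, 262 and 222 CPM in DKO 1, 3 and 4, against 220.0, 231 and 185 CPM in WT 1, 2 and 3. The groups overlapped (fold 1.10, 95% interval from 0.909 to 1.32, log2 fold change 0.13, SE 0.12, edgeR adjusted p = 0.596). Within the Xist-high libraries the log2 difference was -0.08 and within the Xist-low libraries 0.38, so its sign turned between them. Atp2c1 shares 1837 exonic bases with Aste1 on the opposite strand, and how reads there were assigned is uncertain. Aste1 had 8.51 to 9.47 CPM in DKO and 7.25 to 7.90 CPM in WT, without overlap.

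Atp2c2 encodes SPCA2, a pump of secretory epithelia such as the mammary gland, which in human cells can also switch on ORAI1 independently of the store (ENSMUSG00000034112, chromosome 8, 119700009 to 119757717, plus strand). It had 53, 69 and 62 counts in DKO, against 56, 92 and 64 counts in WT, or 2.66 to 3.52 CPM in DKO and 2.38 to 4.46 CPM in WT. WT 2 was highest and the groups overlapped (log2 fold change -0.02, SE 0.28, 95% interval of the fold from 0.634 to 1.54, edgeR adjusted p = 0.983). Upper-quartile scaling turned its sign (0.005). Atp2c1 held 98.8 ± 0.145% of the SPCA FPKM in DKO and 98.7 ± 0.383% in WT (SD, n = 3 each), which differed by less than the spread between libraries.

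**Figure D5:**
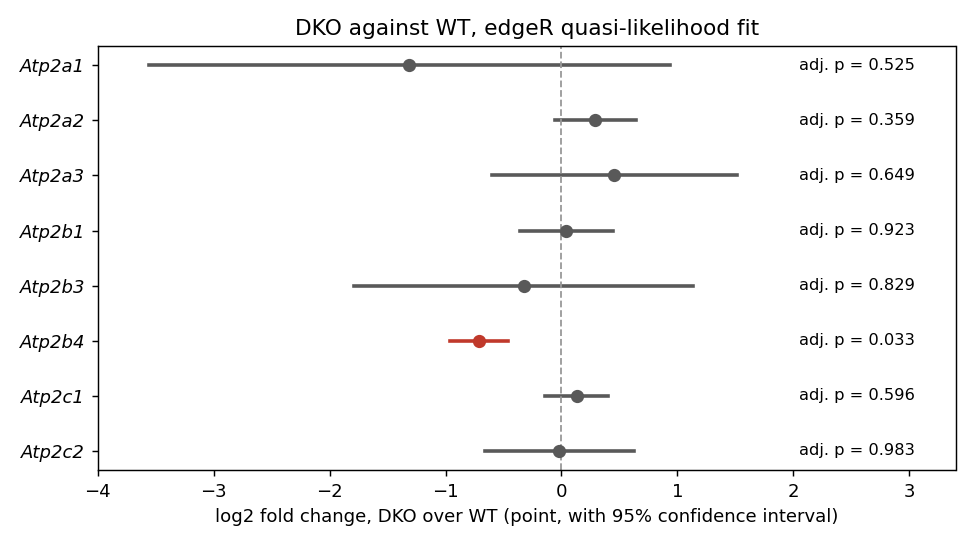
Log2 fold change, DKO over WT, of the 8 tested calcium pump genes in the edgeR fit, with 95% confidence intervals and adjusted p. The interval of Atp2b4 lies wholly below 0, and the intervals of the other 7 genes include 0, from narrow ones for Atp2c1 and Atp2a2 to wide ones for Atp2a1 and Atp2b3.

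Across the 6 libraries, the expressed pump genes had different nearest neighbours among 11812 protein-coding genes with a mean of at least 50 counts. Likeness is the root mean square difference of log2 CPM after each gene is centred on its own mean. Nearest to Atp2b4 were Frem2 (0.083), an extracellular matrix protein of epithelial basement membranes, Zbtb37 (0.0839) and Scai (0.0971). Frem2 averaged 79.7 ± 7.70 CPM in DKO (SD, n = 3), 67.5% of its fitted WT level. Scai averaged 27.8 ± 2.14 CPM in DKO and 43.4 ± 1.58 CPM in WT (SD, n = 3 each). Frem2 and Scai fell in edgeR (adjusted p = 0.0475 and 0.0179) and Zbtb37 was not called (0.0577). The measure reads the same 6 libraries, so genes near Atp2b4 tend to separate the groups as it does.

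Nearest to Atp2a2 were Stard5 (0.046), a lipid transfer protein gene, Gad1 (0.0491), which encodes a glutamate decarboxylase, and Tcn2 (0.0558), which encodes a vitamin B12 carrier. Stard5 stood at 69.9 to 81.3 CPM in DKO and 55.8 to 68.6 CPM in WT. Atp2b1 was nearest to Lama3 (0.0517), a chain of laminin-332, with Steap2 (0.0583) and Mgat5 (0.066) next. Lama3 shared its high libraries, at 1832 CPM in DKO 3 and 1612 CPM in WT 2. Atp2c1 was nearest to Smad2 (0.0285), Ndfip1 (0.0353) and Evi5 (0.0392).

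Beside the pumps, a list of 38 partners and regulators was examined, of which 36 were in the files and 33 were tested. None passed in edgeR, and 5 of 33 had an unadjusted p below 0.05, against 18% of all tested genes, so this count is no result about the partners. The DESeq2 Wald test called 1, Nucb1. By edgeR 21 of the 33 log2 fold changes were positive, and their median was 0.08, against -0.01 over all tested genes. The small SERCA inhibitors of muscle, phospholamban (Pln), sarcolipin (Sln) and myoregulin (Mrln), were all at or below 0.107 CPM in DKO and 0.610 CPM in WT, too low to be tested. These small membrane proteins restrain SERCA in muscle cells.

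As a description, the 5 were Nucb1, Hsp90b1, Tmem64, Sepn1 and Hrc. Nucb1, a luminal and Golgi calcium binder, stood at 200.2, 198 and 207 CPM in DKO 1, 3 and 4, against 164, 160.2 and 172 CPM in WT 1, 2 and 3, without overlap (log2 fold change 0.29, SE 0.07, edgeR adjusted p = 0.103). Hsp90b1, the luminal chaperone GRP94, had 376 to 418 CPM in DKO and 284.5 to 361 CPM in WT (log2 fold change 0.33, adjusted p = 0.204). Tmem64, described in mouse bone cells as a SERCA2 regulator, had 182 to 235 CPM in DKO and 162 to 186 CPM in WT, and Sepn1, a redox protein that acts on SERCA, 48.1 to 58.8 CPM in DKO and 37.9 to 48.6 CPM in WT. Hrc, a calcium binder of the muscle store, was at 0.306 to 0.351 CPM in DKO and 0.806 to 1.70 CPM in WT. The log2 fold change was positive for 4 of these and negative for Hrc (-1.81, SE 0.42, edgeR adjusted p = 0.0944).

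The store buffer Calr averaged 826 ± 80.6 CPM in DKO and 709 ± 48.9 CPM in WT (SD, n = 3 each; edgeR adjusted p = 0.361). The PMCA subunit genes Bsg, which encodes basigin, and Nptn, which encodes neuroplastin, had log2 fold changes of 0.18 (SE 0.11) and -0.02 (SE 0.08). Calm2 and Calm3, which encode calmodulin, the activator of PMCA pumps, had -0.05 (SE 0.08) and 0.08 (SE 0.07). None of these 4 genes was called by edgeR or DESeq2. Nos1, the neuronal nitric oxide synthase and a described partner of PMCA4, stood at 266 to 351 CPM in DKO and 226 to 372 CPM in WT, and the groups overlapped.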

How the data were processed

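RNA of 3 DKO and 3 WT libraries was used, from 500 ng of total RNA and 12 PCR cycles with paired reads of 150 nt and no strand information. Counts are whole numbers per Ensembl gene, deposited unnormalised by the authors in 1 table per library. FPKM values are Cufflinks gene estimates, per the file headers, and were used for comparing levels between genes. Per the submitters' processing notes the build was GRCm38 and the tools included HTSeq, Cufflinks 2.2 and Trimmomatic 0.32. How HTSeq was set and which aligner was used is not given in the sources used here. Pump genes were found by symbol, and positions came from GENCODE vM21 on GRCm38, which may not be the authors' release.

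DKO was compared with WT by edgeR 4.0.16 (quasi-likelihood test, TMM, filterByExpr, no covariate, R 4.3.3) over all genes, calling a Benjamini-Hochberg adjusted p below 0.05. A standard error is the log2 fold change over the square root of F. Shares and ratios got exact permutation tests (SciPy 1.17.1). Intervals cover the spread between libraries only. Without molecular identifiers, PCR copies in the counts cannot be told from separate molecules.

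Named were all 9 pump genes, the targeted genes, listed partners and markers, and the 3 nearest genes of Atp2a2, Atp2b1, Atp2b4 and Atp2c1. The 3 nearest genes of Atp2a1 and the nearest gene of Atp2a3 were added after their values were seen. Of the listed partners, 1 is not reported here by name. The members and lists were chosen with earlier results of these data known. Alternatives were other scalings and low-count filters, DESeq2 1.42.0, limma 3.58.1 on log2(FPKM + 1) or log2(FPKM + 0.1), a replicate block, a term for Xist, each library left out and, chosen after seeing the data, WT 3 and DKO 4 left out together. The limma fits dropped 9 genes whose FPKM estimate had failed, none of them a pump gene. On simulated counts edgeR called 25 of 50 genes made 1.63-fold lower in DKO and 48 of 50 made 3-fold lower. It made 8 false calls among 14482 genes. The smaller fold lies near that seen for Atp2b4, which stood at 61.1% of WT. Changed genes had a mean of at least 50 counts. The counts were drawn with the spread that edgeR fitted to these libraries and no sex or batch differences. These rates therefore need not hold for the real libraries.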

Additional observations from a re-analysis of the deposited data

How the results depend on the processing

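The fall of Atp2b4 kept its direction under all alternatives run. The number of pump genes called, 1 with all libraries, was 0 under the 3 limma fits on FPKM, under the replicate block, with the Xist term and without WT 3 and DKO 4 together, and 0 to 1 with each library left out. The number over all genes, 153, was 554 without a low-count filter, 817 by DESeq2, 77 by limma with either pseudocount and 11 by limma without a filter, 328 under the replicate block (132 higher and 196 lower in DKO, against 108 and 45), 71 with the Xist term, 21 to 335 with each library left out (335 without WT 2, with 124 higher and 211 lower) and 4 without WT 3 and DKO 4 together. The partner list had 1 call, Nucb1, by DESeq2, against 0. Replicate numbers 1 and 3 occur in both groups, but the labels do not say that they mark shared animals or batches. Deviations from the group means correlated at 0.19 for number 1 and -0.01 for number 3. Among pairs with unlike numbers they ran from -0.222 (DKO 3 with WT 1) to 0.230 (DKO 3 with WT 2), with 0.190 for DKO 4 with WT 3. With 3 libraries per group, such correlations cannot decide whether any libraries share an animal or batch. With the number as a block Atp2b4 had a log2 fold change of -0.56 (edgeR adjusted p = 0.0895), Atp2a3 -0.13, Atp2b3 0.36 and Atp2c2 0.25, the last 3 with a turned sign.

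Signs of uncalled log2 fold changes turned elsewhere too. Atp2b1 was -0.012 with total counts, and Atp2c2 was 0.005 with upper-quartile scaling and 0.012 by limma on FPKM without a filter. With each library left out, Atp2a1 ran from -2.14 to 0.27 (positive without WT 3), Atp2a3 from -0.12 (without DKO 4) to 0.82, Atp2b1 from -0.14 to 0.18 (negative without DKO 3, WT 1 or WT 3), Atp2b3 from -0.78 to 0.34 (positive without WT 2) and Atp2c2 from -0.19 to 0.29 (positive without DKO 1 or WT 2). Atp2a1 was 0.79 without WT 3 and DKO 4 together. The share of Atp2c1 in SPCA, 0.08 percentage points higher in DKO, was 0.39 points higher from counts over exon length. The cause of these changes was not tested. Atp2a2 and Atp2c1 kept a positive sign under all 18 alternatives, though Atp2c1 was -0.08 within the Xist-high libraries alone, and the other shares and ratios moved by less than the spread between libraries. Atp2b2, with at most 6 counts per library, is limited by depth.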

Other observations

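Among the Golgi partners of the SPCA pumps, Tmem165, needed for manganese handling, stood at 84.2 to 89.5 CPM in DKO and 74.9 to 86.2 CPM in WT, with overlap. Sdf4, which encodes the Golgi calcium binder Cab45, stood at 204 ± 3.84 CPM in DKO and 187 ± 8.82 CPM in WT (SD, n = 3 each), without overlap (log2 fold change 0.13, edgeR adjusted p = 0.399). Neither was called.

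Over the 6 libraries Atp2a1 spanned 5.35 on the log2 CPM scale, against 0.54 for Atp2a2, 0.54 for Atp2b1, 0.50 for Atp2c1 and 1.01 for Atp2b4. Of 14 tested skeletal muscle markers, 10 had DKO 4 lowest and WT 3 highest. Among these 10, Tnnt3 and Ckm were chosen after their values were seen, with 3.16 and 0.161 CPM in DKO 4 and 50.3 and 22.2 CPM in WT 3. Casq1, a calcium binder of the muscle store and also among the 10, had 0.107 CPM in DKO 4 and 4.27 CPM in WT 3. These values describe single libraries.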
